A study of Mus musculus with 36 samples.

Results

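The genes of the cytosolic ribosomal proteins were examined in RNA-seq of MEF (mouse embryonic fibroblast) cells in which an effector can be sent to the major satellite repeats (MSR), the tandem repeats of pericentric heterochromatin. A gene was taken when it is annotated as protein_coding, carries an Rpl or Rps symbol with a number or is Rplp0, Rplp1, Rplp2 or Rpsa, and reached a raw mean of at least 100 counts over the 36 libraries. Kinases and pseudogenes with similar symbols were left out. Of 54842 genes in the table, 85 fit by name and 82 also by count, of which 49 encode proteins of the large subunit (Rpl) and 33 proteins of the small subunit (Rps). The members were thus chosen by name and selected on their raw mean count, so their abundance is a description and not a finding. Just inside the limit were Rps27rt with a raw mean of 351 counts, Rpl22l1 with 664, Rpl36al with 1356 and Rps27l with 3076. Just outside were Rpl3l with 14.6, Rpl39l with 0.278 and Rpl10l with 0.111.

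The data came from 12 groups of 3 replicates. The MSR-dCas9-Control line carries a dCas9 without effector domain and the MSR-dCas9-Activator line a dCas9 fused to the transcriptional activator VPR. Both are inducible with doxycycline, beside a guide RNA to MSR that is made throughout. The study reports more MSR transcripts in uninduced MSR-dCas9-Activator than in uninduced MSR-dCas9-Control cells, so the uninduced groups may already differ in the effect of the activator. The samples of a line are uninduced cells, cells induced with 10 ng/ml doxycycline, and cells kept without the drug for a further 3, 6, 12 or 24 h. MSR-dCas9-Control cells were induced for 24 h, whereas MSR-dCas9-Activator cells were induced for 6 h, so the induced and all later groups differ in the length of exposure as well as in the effector, and these cannot be told apart. Both lines were made by PiggyBac transposition and kept under hygromycin, but cells were induced in medium without it. Each is a single line, so a difference between the lines that the effector did not cause would enter every comparison. The study calls the replicates biological, the labels do not say how cultures were kept apart, and p-values measure only the spread between these samples.

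The ribosome is built from rRNA and the products of these genes in equal number, apart from the stalk proteins, and most of these genes are transcribed at a high rate in growing cells. Their mRNAs are short, spliced and stable, and most begin with a pyrimidine tract (the 5' terminal oligopyrimidine or TOP motif) through which mTOR and Larp1 tie their translation to nutrients. Surplus ribosomal proteins that find no rRNA are degraded, and some of them, among them Rpl5, Rpl11 and Rpl23, bind Mdm2 when ribosome assembly fails.

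To show what the members share at their start sites, stretches from 60 bases before to 20 bases after the RefSeq start (GRCm38.p6) are printed for the members with the highest and the lowest differences between the lines at 6 h, for Rps6, which is described at several times below, and for Rps27 beside its near copy Rps27rt. The longest run of C and T within 20 bases of the start is in capitals where it has 5 bases or more. All are written 5' to 3' on the gene's strand.
Rpl13 (chr8:123102290-123102369, + strand): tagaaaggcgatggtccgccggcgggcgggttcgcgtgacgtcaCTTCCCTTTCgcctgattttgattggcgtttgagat
Rps2 (chr17:24720003-24720082, + strand): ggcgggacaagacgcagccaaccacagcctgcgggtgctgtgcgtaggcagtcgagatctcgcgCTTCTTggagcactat
Rps6 (chr4:86857348-86857427, - strand): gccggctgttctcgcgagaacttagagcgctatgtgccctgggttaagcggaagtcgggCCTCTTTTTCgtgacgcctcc
Rps27 (chr3:90213629-90213708, - strand): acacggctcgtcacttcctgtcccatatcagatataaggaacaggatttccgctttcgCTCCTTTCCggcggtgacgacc
Rps27rt (chr9:114982720-114982799, - strand): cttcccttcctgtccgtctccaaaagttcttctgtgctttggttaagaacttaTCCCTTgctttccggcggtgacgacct
Rpl22l1 (chr3:28805448-28805527, + strand): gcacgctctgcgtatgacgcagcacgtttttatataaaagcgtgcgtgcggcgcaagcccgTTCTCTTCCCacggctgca
Rpl7l1 (chr17:46782637-46782716, - strand): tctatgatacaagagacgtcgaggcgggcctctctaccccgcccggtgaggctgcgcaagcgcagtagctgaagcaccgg

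The run had 10 bases at Rpl13, Rps6 and Rpl22l1, 9 at Rps27, 6 at Rps2 and Rps27rt, and 3 at Rpl7l1. RefSeq promoters were matched for 62 members (73 promoters, since some genes have several). The members without an entry included Rpl3, Rpl7, Rpl21, Rplp1, Rps14, Rps20 and Rps27a. The median run was 7 bases in the members' promoters (quartiles 5 and 10) and 5 in all 32851 promoters (quartiles 4 and 6). The letters CTTTC stood on the gene's strand within 20 bases of the start in 19 member promoters, 26% of them, against 5.49% of all promoters. The letters CCGGAAG, the core of the sites bound by ETS factors such as GABP, stood on either strand of the 300 bases in 26 member promoters, 35.6%, against 8.86% of all. The letters TATAAA stood on either strand in 7 member promoters, 9.59%, against 13.6%. CTTTC and CCGGAAG can overlap only in a shared C, and TATAAA overlaps neither. These counts describe the letters in these windows and were not set against the measured differences.

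The members' own transcripts were short, and many are copied elsewhere in the genome. The principal transcripts of the 82 members had a median length of 882 bases and 52 of them (63.4%) were under 1000 bases, against a median of 2835 bases and 8.19% among 16450 tested protein-coding genes. Of the windows of 150 bases in these transcripts, the read length of the study, a median of 26.3% per member also occurred in annotated transcripts of other genes. In 11 members, among them Rpl7l1, Rpl22, Rpl39, Rps3, Rps21 and Rps27l, no window did. In 21 members over 50% did, and Rps27 shared 98.0% of its windows, all of them with Rps27rt, which in turn shared 87.1%. The sources used here do not say how reads that match several places were counted, so the division of reads between such copies is uncertain, above all between Rps27 and Rps27rt.

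The libraries held from 27376846 to 57371803 gene counts. The targeted repeat GSAT_MM, the major satellite, had from 22.4 to 51.6 CPM (counts scaled to 1000000 gene counts of a library) in the MSR-dCas9-Control libraries. In MSR-dCas9-Activator libraries it had from 53.5 to 101.3 CPM before induction, above every MSR-dCas9-Control library, and from 2324 to 40072 afterwards. The fibroblast markers Col1a1, Col1a2, Col3a1, Vim, Pdgfra, Pdgfrb and S100a4 had counts in every library, whereas Thy1 was at 0 in 10 libraries and reached 0.175 CPM at most. In these fibroblast markers 6 of 7 tested were called lower in the MSR-dCas9-Activator line at 12 h and 6 at 24 h. Over all tested genes 34.1% and 29.4% were called lower at these times. Of the markers of other cell types, Hbb-bs was at 0 in all 36 libraries, Krt5 in 31, Adgre1 in 29, Epcam in 25 and Alb in 19. Pecam1 reached 31.3 CPM and Alb 6.53 CPM, and the epithelial, endothelial and hepatocyte genes that were called between the lines were all called higher in MSR-dCas9-Activator cells. Their part in the results below was not tested.

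Per length, the most abundant member over all libraries was Rps2, which holds mRNA at the entry of the ribosome, with 2054 CPM per kb of principal transcript. It was followed by Rplp0, the base of the ribosomal stalk, with 1495, Rps26 with 1433, Rplp1 with 1396 and Rps15 with 1387. The lowest were Rps27rt, Rpl36al and Rpl22l1. Levels per length use the annotated principal transcript, which for Rps15a (5179 bases) and Rps20 (3706 bases) is far longer than the median member.

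The share of gene counts that fell on the 82 members differed little between the lines before induction and was larger in the MSR-dCas9-Activator line afterwards. Uninduced MSR-dCas9-Control libraries had 3.42, 3.25 and 3.04% (replicates 1, 2 and 3) and uninduced MSR-dCas9-Activator libraries 3.15, 3.06 and 2.68%. Induced MSR-dCas9-Control libraries reached 3.90, 3.53 and 3.51%, and induced MSR-dCas9-Activator libraries 5.02, 4.17 and 4.13%. The MSR-dCas9-Control line then stayed between 3.37 and 3.93% in all post-induction libraries.

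The MSR-dCas9-Activator line reached 5.77, 4.28 and 4.67% at 3 h, followed by 6.11, 4.33 and 4.89% at 6 h. The values of replicates 1, 2 and 3 were then 6.33, 4.14 and 4.82% (12 h) and 5.72, 3.15 and 4.56% (24 h). All MSR-dCas9-Activator libraries lay above all MSR-dCas9-Control libraries from induction to 12 h. At 24 h the groups overlapped, since MSR-dCas9-Activator replicate 2 had 3.15%, below each MSR-dCas9-Control library, while replicates 1 and 3 lay above. The mean shares at 6 h were 5.11% ± 0.912 against 3.56% ± 0.0776 (SD, n = 3), so the spread was wider in the MSR-dCas9-Activator line. In bulk RNA, fewer cells of a type and less RNA per cell cannot be told apart.

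**Figure D1:**
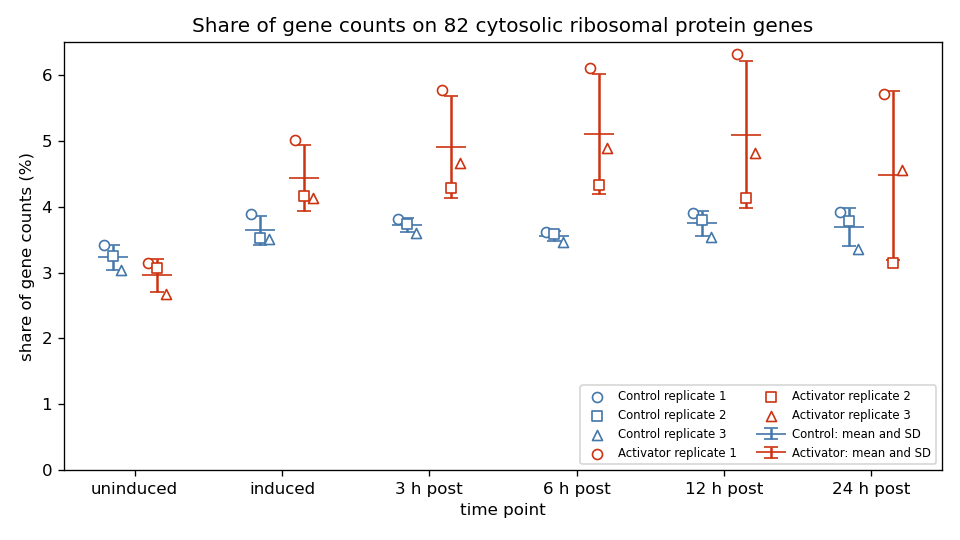
Share of gene counts (%) on the 82 ribosomal protein genes in each of the 36 libraries, by time point and line, with circles, squares and triangles for replicates 1, 2 and 3 and bars for the mean and SD of 3. MSR-dCas9-Activator replicate 1 is the highest of its group at every time point, and replicate 2 falls to 3.15% at 24 h. A share is relative to all gene counts of the library, and a larger share does not show more RNA per cell.

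Before induction no member was called between the lines in either direction at an adjusted p under 0.05 in edgeR's quasi-likelihood test, where in MSR-dCas9-Activator cells 0.883% of 28536 tested genes were called higher and 0.343% lower. At an unadjusted p under 0.05 there were 0 members higher and 4 lower, beside 2963 of 28536 tested genes in either direction. DESeq2 also called 0 members. The median log2 fold change of the members was -0.17 (-0.13 with the scaling to mitochondrial mRNAs described below), against 0.03 over all tested genes. Below 0 were 79 of 82 members, whereas 15677 of 28536 tested genes were above 0. In 19 members all MSR-dCas9-Activator libraries lay below all MSR-dCas9-Control libraries, a pattern that 7.93% of all tested genes showed.

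The lowest members before induction were Rps14 with a log2 fold change of -0.48 (SE 0.17, adjusted p = 0.235), Rpl7a with -0.39 (SE 0.15, adjusted p = 0.295) and Rps21 with -0.34 (SE 0.18, adjusted p = 0.534). The highest were Rpl13 with 0.19 (SE 0.17, adjusted p = 0.808), Rps27rt with 0.12 (SE 0.19, adjusted p = 0.932) and Rps2 with 0.00 (SE 0.13, adjusted p = 1). Past a 2-fold difference lay no member and 0.214% of the tested genes. Within the MSR-dCas9-Control line, induced against uninduced, edgeR called 0 members higher and 0 lower (0.0526% and 0.161% of all tested genes), and DESeq2 called 0. At an unadjusted p under 0.05 in edgeR, 7 members were higher and 0 lower, beside 2064 of 28536 tested genes in either direction. In a fit of these groups alone 42 members (51.2%) were called higher, beside 5.21% of the genes tested in that fit. The median member there was at 0.15 with TMM and at -0.01 with libraries scaled to the mitochondrially encoded mRNAs.

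After induction 26 of 82 members (31.7%) were called higher in MSR-dCas9-Activator cells and none lower, beside 31.7% and 25.5% of all tested genes. The share called higher moved with the method: DESeq2 called 53.7% of members beside 34.7% of its genes, and edgeR on the compared groups alone called 79.3% beside 26.6%. The median log2 fold change was 0.33 (quartiles 0.27 and 0.40), against 0.10 over all tested genes, and in 53 members the groups did not overlap, with MSR-dCas9-Activator above, as in 31.8% of all genes. No member was past 2-fold, beside 8.48% of all genes. The direction did not hold with every scaling. With libraries scaled to the 13 mitochondrially encoded mRNAs in place of TMM the median was -0.04 and no member was called higher, beside 20.4% of all genes. That scaling moved the median of all genes from 0.10 to -0.25, and the members' median stayed above that of all genes by 0.21, against 0.22 with TMM. Leaving out single libraries changed the count of 26 to 13 (MSR-dCas9-Control replicate 1), 17 (MSR-dCas9-Control replicate 3) and 16 (MSR-dCas9-Activator replicate 1). In the same order, 7896 of 29389, 8434 of 29461 and 8582 of 29374 tested genes were called higher. A fit without a replicate number leaves out its library in each of the 12 groups, here and below. Without replicate 1, 2 or 3 in all groups the count was 8, 78 and 3. Those fits called 6935 of 28237, 11347 of 29121 and 5918 of 28819 tested genes higher.

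Among the highest members at induction were Rpl13 with a log2 fold change of 0.66 (SE 0.17, adjusted p = 0.00173) and Rps20 with 0.56 (SE 0.15, adjusted p = 0.00254). Rps20 sits in the head of the small subunit, and its normalised counts were 12269, 11636 and 11164 in MSR-dCas9-Control and 19707, 16831 and 15599 in MSR-dCas9-Activator cells. Every MSR-dCas9-Activator library was above every MSR-dCas9-Control library. The lowest were Rpl7l1 with -0.15 (SE 0.09, adjusted p = 0.157), Rpl22l1 with -0.09 (SE 0.18, adjusted p = 0.682) and Rpl3 with 0.07 (SE 0.12, adjusted p = 0.618). Rpl3, which lies close to the peptidyl transferase centre, had 20692, 22058 and 21763 normalised counts in MSR-dCas9-Control and 24770, 20562 and 22829 in MSR-dCas9-Activator cells, and the groups overlapped.

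The change on induction itself was compared between the lines as an interaction. It was larger in the MSR-dCas9-Activator line in 25 members and smaller in none, beside 14.5% and 17.7% of all tested genes, with a median difference of 0.50 on the log2 scale (0.48 in the large and 0.54 in the small subunit). The part of the difference in exposure time cannot be told apart from that of the effector. Rps6, the target of S6 kinase, went from 18918, 17337 and 17961 to 33846, 27390 and 34166 normalised counts in the MSR-dCas9-Activator line, and from 19800, 18484 and 18899 to 26976, 20959 and 22885 in the MSR-dCas9-Control line. All induced libraries of both lines lay above the uninduced ones, and the difference of the changes was 0.51 (SE 0.19, adjusted p = 0.0417). The highest called difference was that of Rpl39, a small protein of the exit tunnel, with 0.69 (SE 0.25, adjusted p = 0.0359). With the mitochondrial mRNA scaling the median was 0.10 and no member was called. Without replicate 2 in all groups the count of 25 was 76, beside 6474 of 29121 tested genes. Without replicate 1 or replicate 3 in all groups it was 0, beside 1539 of 28237 and 930 of 28819 genes.

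At 3 h after removal 66 members (80.5%) were called higher and none lower, beside 39.6% and 31.4% of all tested genes. The median was 0.45 with TMM and -0.15 with the mitochondrial mRNA scaling, under which no member was called higher (23.5% of all genes) and 11 (13.4%) were called lower (47.6% of all genes). Relative to the median of all genes the members lay 0.29 above it under both scalings. The groups did not overlap in 65 members, with MSR-dCas9-Activator above, as in 39.8% of all genes. No member was past 2-fold, beside 12.8% of all genes. Without MSR-dCas9-Control replicate 1 the count of 66 fell to 31, beside 10276 of 29394 tested genes called higher in that fit. Without replicate 1 in all groups the count was 17, beside 9275 of 28237 genes. Without replicate 3 in all groups it was 11, beside 8873 of 28819 genes.

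Rpl13, a protein of the large subunit, was the highest at 3 h with a log2 fold change of 0.86 (SE 0.17, adjusted p = 6.77e-05), followed by Rps2 with 0.80 (SE 0.13, adjusted p = 6.12e-06) and Rps27rt with 0.72 (SE 0.19, adjusted p = 0.00139). Rps2 had 71708, 67580 and 99887 normalised counts in MSR-dCas9-Control and 107068, 137930 and 171248 in MSR-dCas9-Activator cells. The lowest were Rpl22l1 with -0.24 (SE 0.18, adjusted p = 0.234), Rpl7l1 with -0.17 (SE 0.09, adjusted p = 0.0938) and Rpl21 with 0.12 (SE 0.14, adjusted p = 0.45).

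At 6 h the members' median with TMM was the highest of the 6 time points (it was below 0 with the mitochondrial mRNA scaling), and 78 members (95.1%) were called higher and none lower, beside 40.8% and 33.3% of all tested genes. All 33 small subunit genes and 45 of 49 large subunit genes were called. The members that were not called were Rpl21, Rpl22l1, Rpl36al and Rpl7l1. The median was 0.65 with TMM (0.64 in the large and 0.65 in the small subunit, quartiles 0.55 and 0.71 over all members), and with the mitochondrial mRNA scaling it was -0.08, no member was called higher (24% of all genes) and 8 (9.76%) were called lower (51.9% of all genes). The members lay above the median of all genes by 0.51 with TMM and by 0.50 with the mitochondrial mRNA scaling. The mRNAs used for that scaling were not level between the lines under TMM: 10 of 13 were called higher in MSR-dCas9-Activator cells at 6 h, with a median of 0.74, and their share of counts was 3.60, 2.42 and 2.58% in MSR-dCas9-Activator replicates 1, 2 and 3 and from 1.71 to 2.07% in MSR-dCas9-Control libraries. Their part in the members' values was not tested.

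The groups did not overlap in 69 members at 6 h, with MSR-dCas9-Activator above, as in 38.1% of all genes. Only Rpl13 was past 2-fold, beside 13.9% of all genes. Without replicate 2 in all groups the number past 2-fold was 42, and the share of all genes past 2-fold in that fit was not counted. Its median over members was 1.01 and over all genes 0.34, against 0.65 and 0.13 with all replicates. Without replicate 1 in all groups the number called higher was 48. The median over members was 1.00 in replicate 1, 0.21 in replicate 2 and 0.69 in replicate 3, and 82, 71 and 80 members were higher in the MSR-dCas9-Activator library of the respective pair. Replicate 2 thus had the smallest and replicate 1 the largest median difference. The GSAT_MM level of the same MSR-dCas9-Activator libraries was 5872, 19434 and 29595 CPM in replicates 1, 2 and 3, an order that is not that of the members.

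**Figure D2:**
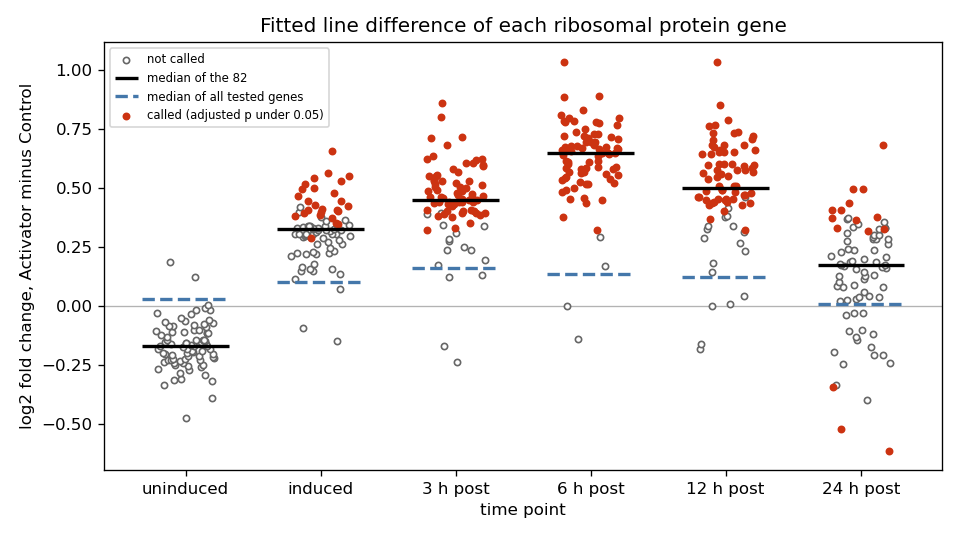
Log2 fold change between the lines (MSR-dCas9-Activator minus MSR-dCas9-Control, edgeR with TMM) of each of the 82 members at 6 time points, filled when called at an adjusted p under 0.05. Black bars are the members' median and dashed bars the median of all tested genes. The members' median goes from -0.17 before induction to 0.65 at 6 h and 0.17 at 24 h, and the signs from induction on depend on the scaling (-0.08 at 6 h with the mitochondrial mRNA scaling).

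The genes of the ribosomal stalk, which recruits the GTPases of translation, were all called higher at 6 h. Rplp0 had 73160, 67648 and 68670 normalised counts in MSR-dCas9-Control and 132862, 87996 and 122000 in MSR-dCas9-Activator cells. The MSR-dCas9-Activator libraries were all above, with replicate 2 the closest to the MSR-dCas9-Control libraries, and the log2 fold change was 0.70 (SE 0.15, adjusted p = 0.000113). Rplp1 had a log2 fold change of 0.78 (SE 0.16, adjusted p = 8.55e-05) and Rplp2 of 0.64 (SE 0.16, adjusted p = 0.000658).

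Among the genes whose proteins form the 5S rRNA particle, Rpl5 went with a log2 fold change of 0.59 (SE 0.14, adjusted p = 0.0004) and Rpl11 with 0.54 (SE 0.16, adjusted p = 0.00286). Rpl23 and Rps7, whose proteins can also bind Mdm2, had 0.68 (SE 0.15, adjusted p = 0.000172) and 0.59 (SE 0.14, adjusted p = 0.000538). Rpl11 had 12793, 12701 and 12817 normalised counts in MSR-dCas9-Control and 23941, 13380 and 19638 in MSR-dCas9-Activator cells, so its replicate 2 was only just above the MSR-dCas9-Control libraries.

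In the small subunit, Rps2, with 59722, 64482 and 92002 normalised counts in MSR-dCas9-Control and 118107, 116864 and 162454 in MSR-dCas9-Activator cells, had a log2 fold change of 0.89 (SE 0.13, adjusted p = 1.23e-06). Rps6 had 20637, 21203 and 23080 against 44784, 27542 and 43582 and a log2 fold change of 0.81 (SE 0.14, adjusted p = 5.71e-06). In both genes every MSR-dCas9-Activator library was above every MSR-dCas9-Control library. Rpsa, which also exists as a laminin receptor, had 0.71 (SE 0.15, adjusted p = 0.0001), Rps26 0.72 (SE 0.15, adjusted p = 0.000107) and Rps3, a protein of the mRNA entry with a role in DNA repair, 0.61 (SE 0.19, adjusted p = 0.00499).

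Rps19, the gene most often mutated in Diamond-Blackfan anaemia, had a log2 fold change at 6 h of 0.59 (SE 0.15, adjusted p = 0.000874), and Rps25, a protein needed by several viral entry sites, of 0.56 (SE 0.17, adjusted p = 0.00409). Rps27a, whose product is a fusion of ubiquitin and a ribosomal protein, had 0.61 (SE 0.16, adjusted p = 0.000966). Rps4x had 0.59 (SE 0.14, adjusted p = 0.000444). Rps18 and Rpl13a, both in use as references in RT-qPCR, had 0.65 (SE 0.17, adjusted p = 0.00165) and 0.50 (SE 0.12, adjusted p = 0.000666), and -0.08 and -0.22 with the mitochondrial mRNA scaling.

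In the large subunit, Rpl24 had a log2 fold change at 6 h of 0.72 (SE 0.17, adjusted p = 0.000342) and Rpl38, known for its part in the translation of Hox mRNAs, of 0.58 (SE 0.21, adjusted p = 0.0164). Rpl39 had 0.56 (SE 0.18, adjusted p = 0.00625), Rpl10, which is added last and completes the large subunit, 0.45 (SE 0.10, adjusted p = 0.000228), and Rpl3 0.32 (SE 0.12, adjusted p = 0.0163). Rpl13, at chromosome 8, 123102350 to 123105244 (GRCm38), was the highest member at 6 h. Its normalised counts were 12235, 14031 and 25832 in MSR-dCas9-Control and 26343, 33013 and 44452 in MSR-dCas9-Activator cells, and the log2 fold change was 1.04 (SE 0.17, adjusted p = 5.57e-06), or 2.05-fold. MSR-dCas9-Control replicate 3 lay well above replicates 1 and 2 in this gene, and just below the lowest MSR-dCas9-Activator library.

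**Figure D3:**
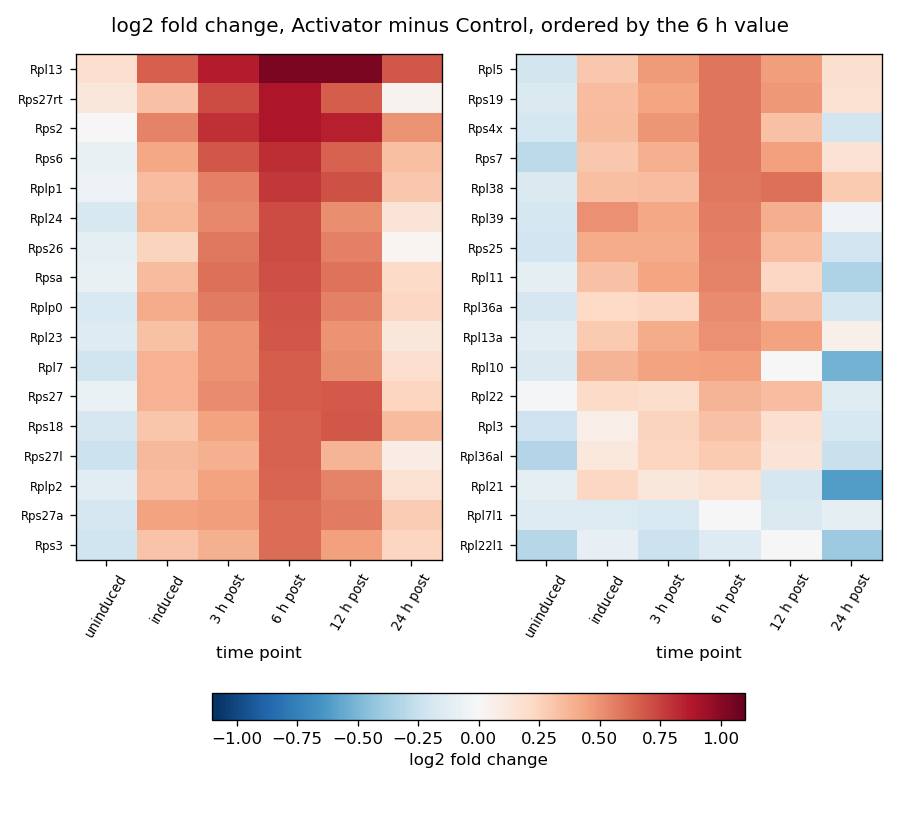
Log2 fold change between the lines (MSR-dCas9-Activator minus MSR-dCas9-Control, edgeR with TMM) of the 34 members described at 6 h, in rows, at 6 time points in columns, ordered by the value at 6 h from Rpl13 (1.04) at the top left to Rpl22l1 (-0.14) at the bottom right. Red is higher and blue lower in MSR-dCas9-Activator cells under TMM scaling, and under the mitochondrial mRNA scaling the median of all 82 members at 6 h is -0.08.

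Members with a paralogue allowed copies of a protein to be set beside each other. Rps27 and Rps27l had log2 fold changes at 6 h of 0.66 (SE 0.16, adjusted p = 0.000691) and 0.65 (SE 0.18, adjusted p = 0.00217). Rps27l shared no window with another gene, whereas Rps27 shared nearly all of its windows with Rps27rt. Rps27rt, at chromosome 9, 114982366 to 114982739, had 320, 277 and 266 normalised counts in MSR-dCas9-Control and 794, 355 and 512 in MSR-dCas9-Activator cells, all above, with 0.89 (SE 0.19, adjusted p = 0.000135). How far reads of Rps27 enter this value is uncertain.

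Rpl7 and Rpl7l1 were far apart. Rpl7 had 24990, 28222 and 27476 normalised counts in MSR-dCas9-Control and 53445, 32269 and 44570 in MSR-dCas9-Activator cells at 6 h, all above, with a log2 fold change of 0.67 (SE 0.16, adjusted p = 0.000407). Rpl7l1, whose protein acts in the assembly of the large subunit in place of Rpl7, had 5533, 5570 and 6638 against 6647, 4941 and 6273, which overlapped, and its log2 fold change was 0.00 in size (SE 0.09, adjusted p = 0.997). Rpl22 had 0.38 (SE 0.17, adjusted p = 0.0439) and its paralogue Rpl22l1 -0.14 (SE 0.18, adjusted p = 0.484). Rpl22l1 had 682, 743 and 647 normalised counts against 838, 483 and 576, with replicate 1 above and the other replicates below all MSR-dCas9-Control libraries. Rpl36a had 0.52 (SE 0.21, adjusted p = 0.0294) and Rpl36al 0.29 (SE 0.15, adjusted p = 0.0865). The differences between the members of a pair were not tested.

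**Figure D4:**
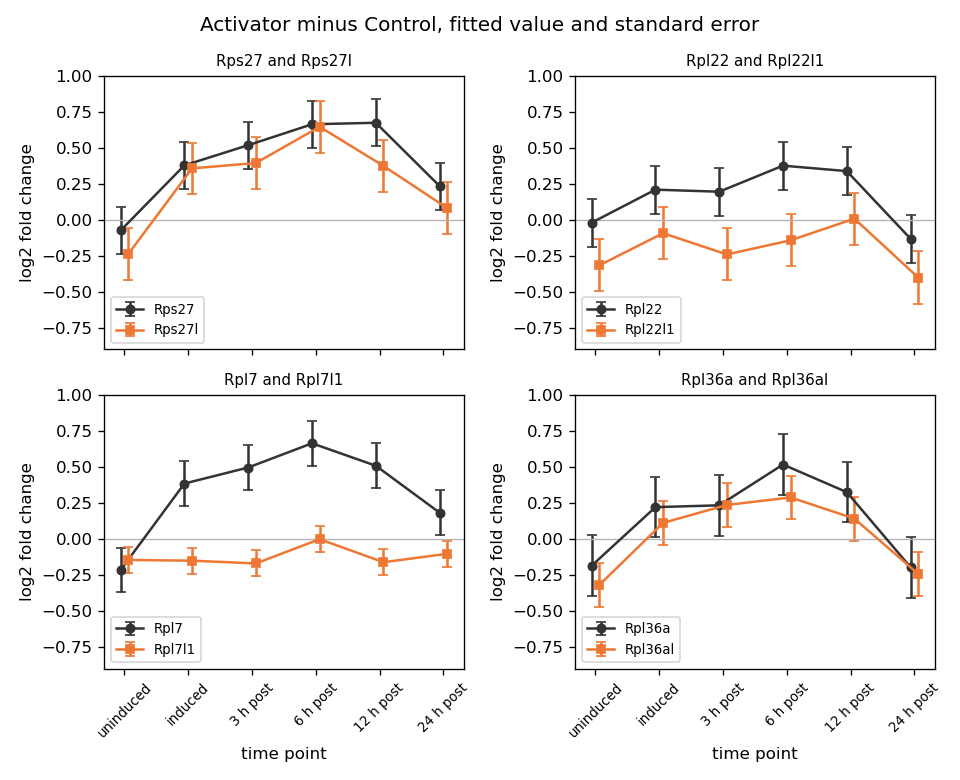
Log2 fold change between the lines (MSR-dCas9-Activator minus MSR-dCas9-Control, edgeR with TMM) at 6 time points for 4 pairs of paralogues, with bars for the standard error. Rps27 and Rps27l are at 0.66 and 0.65 at 6 h, whereas Rpl7 goes to 0.67 at 6 h and Rpl7l1 stays between -0.17 and 0.00. With the mitochondrial mRNA scaling Rpl7, Rpl22, Rpl36a, Rpl36al, Rps27 and Rps27l are below 0 at 6 h.

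At 12 h 64 members (78.0%) were called higher and none lower, beside 41.1% and 34.1% of all tested genes. The median was 0.50 with TMM and -0.14 with the mitochondrial mRNA scaling, under which no member was called higher (28.1% of all genes) and 15 (18.3%) were called lower (48.5% of all genes), and the members lay above the median of all genes by 0.38 and 0.35 respectively. The groups did not overlap in 36 members, with MSR-dCas9-Activator above, as in 39.9% of all genes. The median over members was 0.83 in replicate 1, 0.01 in replicate 2 and 0.65 in replicate 3. In replicate 2 there were 42 of 82 members higher in the MSR-dCas9-Activator library. Only Rpl13 was past 2-fold, beside 15.2% of all genes. Without replicate 2 in all groups the number past 2-fold was 15, and the share of all genes past 2-fold in that fit was not counted. Its median over members was 0.83 and over all genes 0.28, against 0.50 and 0.12 with all replicates. Without replicate 1 or replicate 3 in all groups the number called higher was 20.

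The highest members at 12 h were Rpl13 with a log2 fold change of 1.03 (SE 0.17, adjusted p = 4.95e-06), Rps2 with 0.85 (SE 0.13, adjusted p = 1.97e-06) and Rps20 with 0.79 (SE 0.15, adjusted p = 4.47e-05). The lowest were Rpl21 with -0.18 (SE 0.15, adjusted p = 0.25), Rpl7l1 with -0.16 (SE 0.09, adjusted p = 0.107) and Rpl10 with 0.00 in size (SE 0.10, adjusted p = 0.984). Rpl10 was called higher at 6 h, and at 12 h its normalised counts were 33587, 33348 and 32700 in MSR-dCas9-Control and 40226, 25739 and 34413 in MSR-dCas9-Activator cells, with replicate 2 below and the others above.

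At 24 h 12 members (14.6%) were called higher and 3 lower (3.66%), beside 34.5% and 29.4% of all tested genes. DESeq2 called 39% of members higher beside 38% of its genes, and edgeR without TMM called 39% beside 36.4%. The median was 0.17 with TMM and -0.01 with the mitochondrial mRNA scaling, against 0.01 and -0.18 over all genes. No member had all MSR-dCas9-Activator libraries above MSR-dCas9-Control, as 32.7% of all genes did, and 4 had them all below, as 28.8% of all genes did. The median over members was 0.50 in replicate 1, -0.43 in replicate 2 and 0.39 in replicate 3, with 76, 2 and 71 members higher in the MSR-dCas9-Activator library. No member was past 2-fold, beside 7.46% of all genes.

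The count at 24 h depended on single libraries. Without MSR-dCas9-Activator replicate 2 it was 44 members called higher, beside 10832 of 29406 tested genes. Without replicate 2 in all groups it was 68 (82.9%, beside 41% of all genes). Without MSR-dCas9-Activator replicate 1 it was 4, and without MSR-dCas9-Control replicate 1, 2 or 3 it was 4, 19 and 3. In the same order, these fits called 9504 of 29135, 9276 of 29382, 9959 of 29452 and 9340 of 29384 tested genes higher. The share of counts on mitochondrially encoded mRNAs at 24 h was 2.83, 2.05 and 1.97% in MSR-dCas9-Activator replicates 1, 2 and 3 and from 1.5 to 2.19% in MSR-dCas9-Control libraries.

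The members called higher at 24 h included Rpl13, Rps2, Rpl34, Rps12, Rpl32, Rps20 and Rps6. Rpl13 was the highest with a log2 fold change of 0.68 (SE 0.17, adjusted p = 0.00107), followed by Rps2 with 0.50 (SE 0.13, adjusted p = 0.00199) and Rpl34 with 0.49 (SE 0.15, adjusted p = 0.00567). Rpl34 had 9681, 9286 and 8824 normalised counts in MSR-dCas9-Control and 17505, 8212 and 14462 in MSR-dCas9-Activator cells, with replicate 2 below all MSR-dCas9-Control libraries and the other replicates above them. Rpl13 had 13486, 14068 and 23775 against 23007, 20996 and 37914, and the groups overlapped.

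The members called lower at 24 h were Rpl21, Rpl10 and Rpl7a, all of the large subunit. Rpl21, at chromosome 5, 146832890 to 146837032, had 10136, 10699 and 7893 normalised counts in MSR-dCas9-Control and 7414, 5460 and 6015 in MSR-dCas9-Activator cells, and its log2 fold change was -0.61 (SE 0.15, adjusted p = 0.000594). Rpl10, at chromosome X, 74270812 to 74273135, had 32371, 30079 and 30975 against 24777, 18013 and 22620 and -0.52 (SE 0.10, adjusted p = 6.09e-05). In both genes all MSR-dCas9-Activator libraries lay below all MSR-dCas9-Control libraries. Rpl7a had 29277, 28974 and 29478 against 27545, 17237 and 25402, also without overlap, and -0.34 (SE 0.15, adjusted p = 0.0472). Rpl22l1 had -0.40 (SE 0.18, adjusted p = 0.0551) and was not called. Rpl10 shared 83.3% of its windows with other genes, Rpl7a 65.2% and Rpl21 10.9%.

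The change from 12 to 24 h was also compared between the lines as an interaction. The median member had -0.36 on the log2 scale, against -0.07 over all tested genes, while with the mitochondrial mRNA scaling it had 0.09 against 0.35. With TMM no member was called higher (0 at an unadjusted p under 0.05 and 0 with DESeq2) and 1 was called lower, Rpl10 with -0.52 (SE 0.14, adjusted p = 0.0135), beside 8.7% and 6.38% of all tested genes. Rpl10 thus had 0.45 at 6 h, 0.00 in size at 12 h and -0.52 at 24 h. Without replicate 2 in all groups there were 12 members called lower, beside 2232 of 29121 tested genes. Without replicate 1 or replicate 3 in all groups there were 0, beside 408 of 28237 and 23 of 28819 genes.

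Seen as a share of the members' own counts, which takes the scaling out, a few genes moved apart from the list. Differences in log2 share at 6 h (MSR-dCas9-Activator minus MSR-dCas9-Control) were -0.82 (SE 0.12) for Rpl22l1, -0.65 (SE 0.096) for Rpl7l1 and -0.50 (SE 0.11) for Rpl21, and 0.39 (SE 0.45) for Rpl13 and 0.23 (SE 0.28) for Rps2. The high members were thus within their error of the list on this scale and the low members were beyond it. At 24 h the lowest were Rpl21 with -0.76 (SE 0.21), Rpl10 with -0.68 (SE 0.15) and Rpl22l1 with -0.57 (SE 0.18), whereas Rpl10 had 0.03 (SE 0.03) at induction. These genes were chosen for their place at the ends of the list, so the differences are descriptions without a test.

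Transcript length moved with the difference between the lines across other genes. Among protein-coding genes outside the list with a mean above 100 normalised counts, the median log2 fold change at 6 h was 0.34 for transcripts under 1000 bases, 0.06 from 1000 to 2000, -0.19 from 2000 to 4000 and -0.42 for 4000 bases and over. The members, whose median length was 882 bases, had 0.65. At 24 h these classes had -0.15, -0.24, -0.32 and -0.39 and the members 0.17, and before induction they lay between -0.03 and -0.02 and the members at -0.17. Within the list the log2 fold change hardly followed length (Spearman's rho -0.07 at 6 h over 82 members, which share libraries) and its rho with CPM was 0.33. The part of transcript length in the members' values was not tested.

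**Figure D5:**
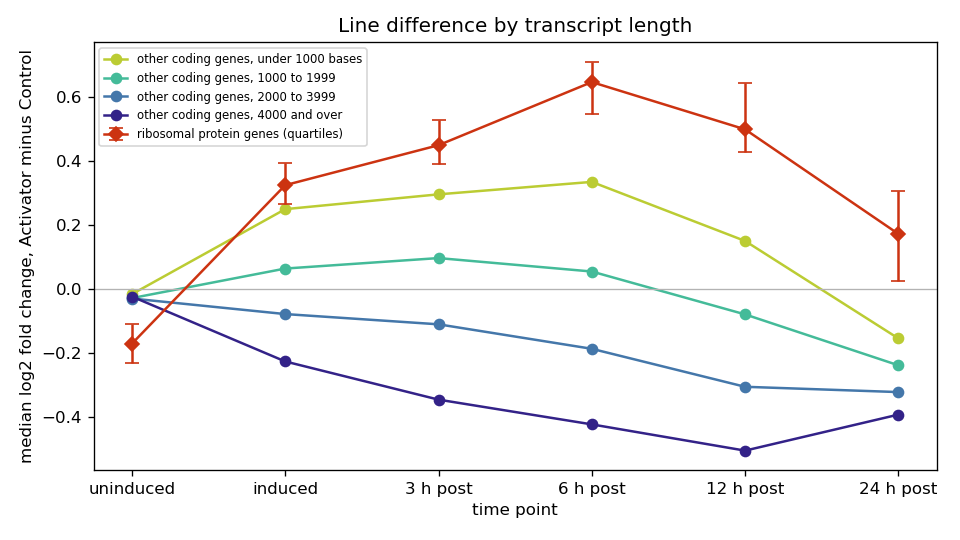
Median log2 fold change between the lines (MSR-dCas9-Activator minus MSR-dCas9-Control, edgeR with TMM) at 6 time points for the 82 members (diamonds, bars for the quartiles) and for other protein-coding genes in 4 classes of principal transcript length. At 6 h the members are at 0.65 and the classes at 0.34, 0.06, -0.19 and -0.42 from short to long. With the mitochondrial mRNA scaling the members' median at 6 h is -0.08.

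Members were also divided by the share of windows found elsewhere, with no test of the difference. At 6 h the median log2 fold change was 0.61 in the 11 members without a shared window, 0.66 in 50 members with up to 50% and 0.60 in 21 with more, and at 24 h it was 0.04, 0.18 and 0.16. Of the 300 ribosomal protein pseudogenes listed, 170 passed the filter on low counts. At 6 h 114 of these were called higher and 14 lower, beside 40.8% and 33.3% of all tested genes, with a median of 0.85. At 24 h there were 38 and 10, beside 34.5% and 29.4% of all tested genes. The most abundant, Rpl3-ps1, had 0.60 (SE 0.15, adjusted p = 0.000613) at 6 h, where Rpl3, which shares 70.97% of its windows with it, had 0.32. How reads were divided between a pseudogene and its parent is uncertain.

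The values of the following lists are with TMM scaling. Their counts stand beside 40.8% of all tested genes called higher and 33.3% lower at 6 h, and 34.5% and 29.4% at 24 h. Fau, which encodes a ribosomal protein fused to a relative of ubiquitin and whose symbol the name rule does not take, lay on the same side of 0 as the members' median at 6 and 24 h. Fau had a log2 fold change of 0.77 (SE 0.13, adjusted p = 7.05e-06) at 6 h and 0.41 (SE 0.13, adjusted p = 0.00805) at 24 h. Of 16 translation factors and other genes with a TOP motif, 12 were called higher and 1 lower at 6 h with a median of 0.50, and 3 and 5 at 24 h with a median of 0.02. Eef1a1, the elongation factor that brings tRNA to the ribosome, had 0.66 (SE 0.12, adjusted p = 2.95e-05) at 6 h. Eef2 had 0.82 (SE 0.14, adjusted p = 8.1e-06), and Eif4b -0.28 (SE 0.08, adjusted p = 0.00286). At 24 h Tpt1 had 0.50 (SE 0.11, adjusted p = 0.000294) and Hnrnpa1 -0.79 (SE 0.15, adjusted p = 5.29e-05).

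The mitochondrial ribosomal proteins, which are encoded in the nucleus and form another ribosome, went in both directions. At 6 h 40 of 78 were called higher and 14 lower (median 0.28), beside 40.8% and 33.3% of all tested genes. The counts at 24 h were 9 called higher and 28 called lower (median -0.11), beside 34.5% and 29.4%. Mrpl38 was the highest at 6 h with 1.07 (SE 0.11, adjusted p = 1.62e-09) and Mrpl41 the lowest with -1.81 (SE 0.18, adjusted p = 4.36e-10). Mrpl12, the most abundant, had -0.13 (SE 0.11, adjusted p = 0.297).

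Of 11 regulators of these genes or of their translation, 3 were called higher and 6 lower at 6 h, beside 40.8% and 33.3% of all tested genes. At 24 h none was called higher and 8 lower, beside 34.5% and 29.4%. Myc, which drives transcription of ribosomal protein genes, had -2.83 (SE 0.25, adjusted p = 3.11e-10) at 6 h and -0.25 (SE 0.23, adjusted p = 0.338) at 24 h. Larp1, which binds the TOP motif and is the most abundant of the list, had -0.39 (SE 0.10, adjusted p = 0.000756) at 6 h and -0.73 (SE 0.10, adjusted p = 3.27e-07) at 24 h. Mtor had 0.27 (SE 0.07, adjusted p = 0.0008) and -0.06 (SE 0.07, adjusted p = 0.463) at these times. The members' and Myc's values at 6 h were thus on different sides of 0 under TMM scaling.

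Of 10 genes for escorts of ribosomal proteins and assembly helpers, 5 were called higher and 4 lower at 6 h. At 24 h these counts were 2 and 4. Over all tested genes 40.8% were called higher and 33.3% lower at 6 h, and 34.5% and 29.4% at 24 h. Pdcd2l and Pdcd2, which escort Rps2, had 0.95 (SE 0.14, adjusted p = 5.21e-07) and 0.72 (SE 0.10, adjusted p = 1.23e-07) at 6 h and 0.88 (SE 0.14, adjusted p = 2.6e-06) and 0.80 (SE 0.10, adjusted p = 3.59e-08) at 24 h. Grwd1, which escorts Rpl3, had -1.13 (SE 0.12, adjusted p = 1.95e-09) at 6 h, and Heatr3, which takes part in the import of Rpl5 and is the most abundant of these genes, -0.45 (SE 0.09, adjusted p = 5.89e-05). Of 9 host genes of small nucleolar RNAs, many of which also begin with a TOP motif, 7 were called lower at 6 h and none higher. By 24 h there were 4 called lower and 3 called higher. Gas5, the most abundant of them, had -1.74 (SE 0.14, adjusted p = 6.63e-12) and Snhg5 -2.43 (SE 0.15, adjusted p = 1.2e-13) at 6 h, and Snhg15 1.06 (SE 0.14, adjusted p = 3.43e-07) at 24 h.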

How the data were processed

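Total RNA libraries of 36 MEF samples were stranded and ribo-depleted, and reads were paired. The authors used cutadapt to trim the reads, STAR for alignment to the GRCm38 genome, and TEtranscripts to count reads over genes and families of repeats. The deposited values are raw counts per gene, whole numbers without normalisation. Not given in the sources used here are the treatment of reads with several matches, the release of the annotation and the strandedness option. The members and the gene lists were chosen with earlier results of these data known.

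Of 54842 genes, 54495 matched GENCODE M21, and 1561 repeat families and 1 unnamed entry were kept out of library sizes and tests (the unnamed entry held at most 0.00452% of a library's counts). Groups came from the sample labels. In R 4.3.3, edgeR 4.0.16 (filterByExpr, TMM, glmQLFit and glmQLFTest) was fitted to 28536 genes in all 36 libraries with 12 groups and the replicate number as block, which the study's methods also use. The correlation of same-numbered libraries' deviations from their group means between the lines was between 0.30 and 0.60 in uninduced and 0.22 and 0.33 in induced cells, and ran from 0.24 to 0.50, 0.12 to 0.45, -0.03 to 0.36 and 0.07 to 0.39 at 3, 6, 12 and 24 h (9881 genes). P-values were adjusted by Benjamini-Hochberg over all tested genes and calls made at an adjusted p under 0.05. A member past 2-fold also needed a mean above 100 normalised counts. Normalised counts are TMM-scaled counts at the mean library size. The standard error of a fitted log2 fold change is its absolute value over the root of its F statistic. Standard errors of log2 shares come from the variances of the 3 libraries of each line, without the replicate block.

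Named were 18 members chosen for their roles, all paralogue pairs, the 3 highest and 3 lowest log2 fold changes at each of 6 time points, and the members at the count limit. Other lists are given by counts, the median and 2 to 4 members. Members called at 24 h beyond these were named after their values were seen. Rpl39l and Rpl10l were too low to be tested, and Rps4l is annotated as a pseudogene. A few genes that these rules name are not reported here. Promoters came from RefSeq. The steps were tested on simulated data. Alternatives were DESeq2 1.42.0, its size factors in edgeR, unscaled library sizes, scaling to 13 mitochondrial mRNAs, repeat counts in the library size, no filter on low counts, no replicate block, a fit of the compared groups only, and leaving out each library or replicate number.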

Additional observations from a re-analysis of the deposited data

Results flagged for a closer look

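How far genes changed on induction differed between lines in a test of the difference itself (an interaction term in edgeR, adjusted over all 28536 tested genes) for 25 of 82 members, all with the larger change in the MSR-dCas9-Activator line under TMM scaling, beside 14.5% of all tested genes called in that direction. The called differences ran from 0.51 (Rps6, SE 0.19, adjusted p = 0.0417) to 0.69 (Rpl39, SE 0.25, adjusted p = 0.0359) on the log2 scale. Rpl39 had 11007, 10415 and 9998 normalised counts in uninduced and 6956, 9550 and 9661 in induced MSR-dCas9-Control libraries, and 9855, 10301 and 7385 against 14767, 11953 and 10942 in the MSR-dCas9-Activator line. The difference within the MSR-dCas9-Control line was not called (-0.25, adjusted p = 0.885), and its induced replicate 1 lay lowest. The lines differ in the length of doxycycline exposure, which cannot be told apart from the effector.

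The change from 12 to 24 h differed between the lines for 1 member, Rpl10, with -0.52 (SE 0.14, adjusted p = 0.0135). In MSR-dCas9-Activator cells Rpl10 went from 40226, 25739 and 34413 to 24777, 18013 and 22620 normalised counts in replicates 1, 2 and 3, and in MSR-dCas9-Control cells from 33587, 33348 and 32700 to 32371, 30079 and 30975. Every MSR-dCas9-Activator replicate was lower at 24 h than at 12 h. No member was called in that direction with libraries scaled to mitochondrial mRNAs, with repeat counts in the library size or without the replicate block. The same held in a fit of the compared groups only, and without replicate 1 or replicate 3 in all groups. In the same order, these fits called lower 80, 654 and 1076 of 28536 tested genes, 483 of 26957, 408 of 28237 and 23 of 28819.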

How the results depend on the processing

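The sign of the members' median from induction on turned with the scaling to mitochondrial mRNAs and was kept with the other scalings. At 6 h the median was 0.82 with DESeq2's size factors in edgeR, 0.49 with unscaled library sizes and 0.46 with repeat counts in the library size. With libraries scaled to mitochondrial mRNAs the members' median was -0.039 after induction and -0.15, -0.076, -0.14 and -0.0079 at 3, 6, 12 and 24 h. The members called higher were then 0 after induction, 0 at 3, 6 and 12 h, 2 at 24 h and 0 in the change on induction. Those called lower were 3 after induction and 11, 8, 15 and 12 at 3, 6, 12 and 24 h. In the change from 12 to 24 h 0 were called lower, and 0 were past 2-fold at 6 and 12 h. Of 28536 tested genes that scaling called 10048 lower after induction, and 8115 higher and 8797 lower at 24 h. The log2 fold changes that turned negative with it were those of Rpl3 after induction (-0.30), Rpl21 at 3 h (-0.48) and, at 6 h, Rplp0 (-0.025), Rplp2 (-0.0795), Rpsa (-0.011), Rpl5 (-0.13), Rpl11 (-0.18), Rpl23 (-0.042), Rps7 (-0.14), Rps3 (-0.12), Rps19 (-0.13), Rps25 (-0.17), Rpl24 (-0.00175), Rpl38 (-0.14), Rpl13a (-0.22), Rps18 (-0.076), Rps27a (-0.11), Rps27 (-0.063), Rps27l (-0.079), Rpl22 (-0.36), Rpl36a (-0.21), Rpl36al (-0.44), Rpl7 (-0.055), Rpl39 (-0.17), Rpl3 (-0.39), Rpl10 (-0.26), Rps4x (-0.13) and Rpl21 (-0.56). With library size without TMM the members called lower were 1 after induction, 1 at 3 h and 2 at 12 h, those called higher at 24 h 32, and 0 were past 2-fold at 6 and 12 h. With repeat counts in the library size they were 1, 1, 3 and 6 called lower after induction and at 3, 12 and 24 h, 36 called higher at 12 h, 0 called lower from 12 to 24 h and 0 past 2-fold, and Rpl21 at 6 h was -0.021.

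DESeq2 and edgeR with DESeq2's size factors both called 44 members higher after induction and 32 at 24 h, with 4 past 2-fold at 6 h and 2 at 12 h, and DESeq2 called 40 higher in the change on induction and 3 lower from 12 to 24 h. Rps2 before induction was -0.000936 with DESeq2 and -0.000944 with its size factors, and in both Rpl22l1 at 6 h 0.037, Rpl7l1 0.18 at 6 h and 0.049 at 12 h, Rpl21 at 12 h 0.025 and Rpl10 at 12 h 0.21. Without the replicate block 12 members were called higher after induction, 3 at 24 h and 1 in the change on induction, 0 lower from 12 to 24 h and 0 past 2-fold, with Rps2 before induction at -0.025, Rpl7l1 at 6 h at 0.0097 and Rpl10 at 12 h at 0.011. A fit of the compared groups only called 2 lower before induction, 65 higher after it, 2 higher and 0 lower at 24 h, 76 higher in the change on induction, 0 lower from 12 to 24 h and 42 higher for induction in the MSR-dCas9-Control line, with 2 past 2-fold at 6 and at 12 h, Rps2 before induction at -0.017, Rpl7l1 at 6 h at 0.13 and Rpl10 at 12 h at 0.14. Without a filter on low counts 6 were called higher in the change on induction and Rpl10 at 12 h was 0.023. Of 28536 tested genes, the fit without the replicate block called 8211 higher after induction, 9358 at 24 h and 3220 in the change on induction. DESeq2 called 6106 of 28536 higher in that change. The compared groups only gave 6172 of 23651 at 24 h and 4778 of 23439 in that change, and no filter gave 3404 of 48106. Beyond the scaling to mitochondrial mRNAs, the cause was not tested.

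Leaving out a library or a replicate number gave 3 to 78 members called higher after induction. The ranges at the later times were 11 to 79 (3 h), 48 to 81 (6 h), 20 to 79 (12 h) and 1 to 68 (24 h), and that of the change on induction was 0 to 76. Called lower were 0 to 1 before and after induction and at 6 and 12 h, 0 to 2 (3 h), 2 to 5 (24 h) and 0 to 12 (from 12 to 24 h). Past 2-fold were 0 to 2 members (3 h), 1 to 42 (6 h) and 1 to 15 (12 h). The share of all genes past 2-fold was counted only in the main edgeR fit, with TMM and all 36 libraries. Over all 29121 genes tested without replicate 2, the fit called higher 11347 after induction and 13423, 13209, 12957 and 11940 at the later times. Without replicate 3 these were 5918, 8873, 9395, 10125 and 7638 of 28819 genes. Without replicate 1 they were 6935, 9275, 9909, 10274 and 7240 of 28237. In the change on induction they were 1539, 6474 and 930 without replicates 1, 2 and 3. Log2 fold changes that crossed 0 ran from -0.20 to 0.42 for Rpl13 and -0.26 to 0.15 for Rps2 before induction. For Rpl7l1 they ran from -0.27 to 0.082 (after induction), -0.26 to 0.13 (3 h), -0.12 to 0.25 (6 h) and -0.25 to 0.0091 (12 h), and for Rpl22l1 from -0.36 to 0.17, -0.52 to 0.13 and -0.38 to 0.24 after induction and at 3 and 6 h. For Rpl21 they ran from -0.029 to 0.47, -0.046 to 0.52 and -0.35 to 0.15 at 3, 6 and 12 h, for Rpl3 after induction from -0.017 to 0.33 and for Rpl10 at 12 h from -0.14 to 0.26. Relative abundance is all that these counts measure, 3 replicates limit the precision, and reads shared with copies cannot be assigned from a count table.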

Other observations

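Offsets between replicates kept their sign through all 6 time points of a line in many members, a pattern chosen after the values were seen and given without a test. In the MSR-dCas9-Activator line 78 of 82 members lay above the mean of their group at every time point in replicate 1, and 28 lay below it in replicate 2. In MSR-dCas9-Control replicate 3 there were 28 members below the mean and 4 above it at every time point. The members share these libraries, and the share of all tested genes with such offsets was not counted. The counts therefore do not show an offset particular to the members. Rpl13 in MSR-dCas9-Control replicate 3 lay 0.60 above the mean of its group on the log2 scale on average (SD 0.055 over the time points, from 0.52 to 0.65), and Rps2 in the same replicate lay 0.35 above (SD 0.035). In the MSR-dCas9-Activator line Rpl13 had a mean deviation of -0.40 in replicate 1 and of 0.34 in replicate 3. Rpl13 and Rps2 were also among the 3 members with the highest differences between the lines at 3, 6, 12 and 24 h.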
